A study of Mus musculus with 5 samples.

Results

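Potassium channel genes were described here across single cells and single nuclei of mouse kidney. A gene was taken as a member when its symbol began with Kcn and letters that name a channel family, except Kcnj1, Kcnip4, Kcnh8, the antisense transcript Kcnq1ot1 and symbols ending in os or Rik. Of 22980 gene symbols in the 2 expression tables, 85 matched, and 53 of these had at least 20 unique molecular identifiers (UMIs, counts of single captured RNA molecules) over all barcodes, as did 16506 symbols of the whole series. The 32 below that minimum included 7 with no count. Just inside the minimum were Kcnk6 with 22 counts and Kcnh3 with 23, and just outside were Kcne1l with 19 and Kcng1 with 18. The 53 members comprised 18 of 36 voltage-gated genes, 10 of 12 inward rectifier genes, 8 of 13 tandem-pore-domain genes, 8 of 15 auxiliary subunit genes, all 5 calcium-activated genes, both sodium-activated genes, the pH-activated Kcnu1 and the channel regulator Kcnrg.

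Potassium channels let potassium leave the cell along its gradient and so set the membrane voltage that drives the transport of other ions. In the kidney tubule, basolateral channels return to the blood side the potassium that the sodium pump brings in, and apical channels secrete potassium into the urine or hold the voltage for sodium and chloride uptake. The pore-forming proteins differ in what opens them (voltage, calcium, sodium, pH or none of these), and auxiliary subunits change their gating and their place in the membrane.

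The samples were C57BL/6 kidneys. One library held 10x Genomics nuclei of a kidney at day 14 of unilateral ureteral obstruction (UUO), in which tying off a ureter injures and scars the kidney. The 4 healthy libraries were whole cells on the Drop-seq platform, and nuclei on the sNucDrop-seq, DroNc-seq and 10x platforms. The UUO library had 6147 barcodes and 7411036 UMIs, the Drop-seq cells had 3531 and 6872118, the sNucDrop-seq nuclei 3011 and 4630236, the DroNc-seq nuclei 2769 and 5864130, and the healthy 10x nuclei 2084 and 2947137. There was 1 library per group, so no difference between conditions or platforms has a replicate check and none was tested. A level is given as CPM, the UMIs of a gene scaled to a common total of UMIs in its library or class, and intervals are 95% intervals that cover counting error only. A member was called higher or lower when it was at least 2-fold apart, which is 1 on the log2 scale, whether or not its interval reached 0.

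The cell types are the authors' deposited labels, summed to 9 classes found in all nucleus libraries. The marker lists of these classes were highest in the class of their own name in the healthy nuclei, except the thin limb list in DroNc-seq, of which 2 of 4 genes were above 0. In UUO the principal cell list was highest in the connecting tubule label, at 186 CPM there and 74.5 CPM in the principal cell label, so the results named for these labels are also given with both summed. The proximal tubule class of UUO also takes in the dedifferentiated and proliferating proximal tubule labels, which the healthy libraries do not have. Their part in the levels of single genes was not tested. The UUO and healthy 10x libraries shared 23 barcodes. Xist, the transcript of the inactive X chromosome, stood at 0.405 CPM in UUO and 1321 CPM in healthy 10x nuclei, and at 0 in the sNucDrop-seq nuclei, so that obstruction cannot be told apart from other differences between the mice.

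Promoter windows of the inward rectifier genes that the results turn on are shown first, because the differences of these genes after obstruction were of unlike size. Kcnj16 encodes Kir5.1, a subunit that forms mixed channels with Kir4.1, the product of Kcnj10, or with Kir4.2, the product of Kcnj15. The windows are RefSeq sequences (GRCm38.p6), 250 bases before and 50 after an annotated start, 5′ to 3′ on the gene's strand, at chr1:172340960-172341259 for Kcnj10, chr16:95257308-95257607 for Kcnj15 and chr11:110967783-110968082 for the first of 4 starts of Kcnj16. Capitals mark the motifs searched on both strands: the GC box GGGCGG, the TATA box TATAAA, the HNF1 motif GTTAAT and the HNF4 motif AAAGTCCA.
Kcnj10: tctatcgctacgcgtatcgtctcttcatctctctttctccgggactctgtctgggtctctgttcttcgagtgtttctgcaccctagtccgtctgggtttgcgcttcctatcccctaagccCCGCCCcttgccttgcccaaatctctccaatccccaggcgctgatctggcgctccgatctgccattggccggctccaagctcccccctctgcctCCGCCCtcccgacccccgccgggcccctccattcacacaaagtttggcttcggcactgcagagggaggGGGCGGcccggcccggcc
Kcnj15: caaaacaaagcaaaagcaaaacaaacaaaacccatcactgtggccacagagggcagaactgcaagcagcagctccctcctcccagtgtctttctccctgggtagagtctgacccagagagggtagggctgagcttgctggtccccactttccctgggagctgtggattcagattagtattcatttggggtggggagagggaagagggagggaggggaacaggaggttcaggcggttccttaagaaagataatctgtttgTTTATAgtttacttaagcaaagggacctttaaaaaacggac
Kcnj16: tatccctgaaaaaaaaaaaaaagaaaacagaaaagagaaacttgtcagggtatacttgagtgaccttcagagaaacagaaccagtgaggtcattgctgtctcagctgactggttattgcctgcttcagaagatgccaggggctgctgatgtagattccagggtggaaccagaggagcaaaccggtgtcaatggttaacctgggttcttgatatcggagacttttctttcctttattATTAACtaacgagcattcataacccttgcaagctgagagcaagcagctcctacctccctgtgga

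The Kcnj10 window held 3 GC boxes, the Kcnj15 window 1 TATA box on the minus strand, and the Kcnj16 window 1 HNF1 motif on the minus strand. Of 32851 promoter windows in the RefSeq table, 35.7% held a GC box, 13.6% a TATA box, 7.1% the HNF1 motif and 1.25% the HNF4 motif. Of the 63 windows of the 41 members that matched, 31 held a GC box, 4 a TATA box, 3 the HNF1 motif and 0 the HNF4 motif. These are matches of letters and say nothing of binding.

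In healthy nuclei the inward rectifier subunits had different places along the tubule. Kcnj15 was highest in the proximal tubule in all 3 nucleus libraries, at 1195 CPM there in sNucDrop-seq, 685 CPM in DroNc-seq and 653 CPM in 10x nuclei. Kcnj10, whose product is the main basolateral channel of the distal convoluted tubule, had 159, 133 and 123 CPM in that segment in the same order, against 12.9, 12.4 and 21.1 CPM in the proximal tubule. The connecting tubule of 10x nuclei had 151 CPM of Kcnj10, and its interval overlapped that of the distal convoluted tubule. Kcnj16 was spread over the tubule, with 768, 1187 and 1143 CPM in the proximal tubule and 762, 871 and 950 CPM in the distal convoluted tubule. The class with the highest Kcnj16 level differed among the libraries, being the ascending limb, the proximal tubule and the connecting tubule.

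Part of the signal outside a class can be free RNA in the droplets. The proximal tubule marker list outside the proximal tubule reached 41.4% of its level inside in sNucDrop-seq nuclei, 31.6% in DroNc-seq and 9.48% in healthy 10x nuclei. Kcnj15 stood at 42.6%, 31.6% and 10.6% in the same libraries, near the marker list in each, and Kcnk5 at 43.4%, 38.7% and 11.4%. Kcnj16 stood at 89.5%, 62% and 75.6%, above the marker list in each. The part of free RNA in the levels of these genes outside the proximal tubule was not tested. In UUO the marker list stood at 9.90%, Kcnj15 at 17.4%, Kcnk5 at 19.9% and Kcnj16 at 71.5%.

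**Figure D1:**
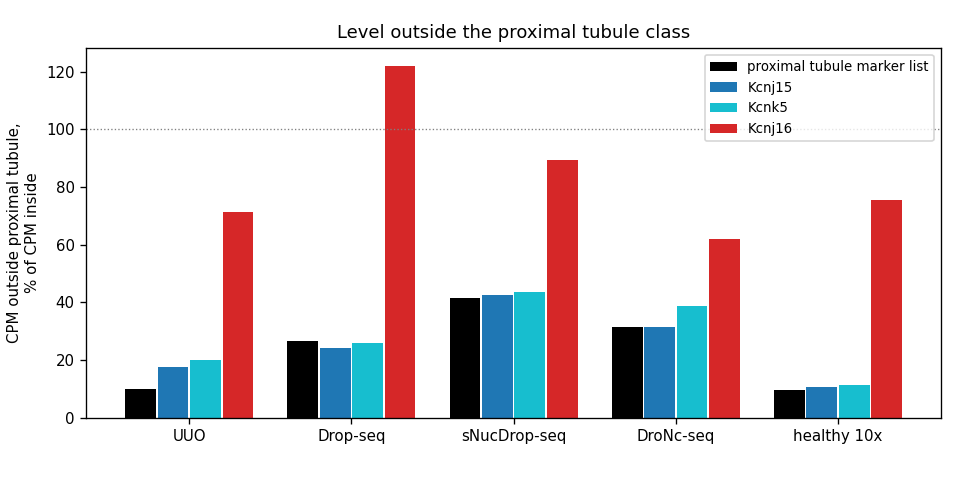
The level outside the proximal tubule class as a percentage of the level inside it, for the summed proximal tubule marker list and 3 members in each library. Kcnj16 stands higher than the marker list, Kcnj15 and Kcnk5 in all 5 libraries.

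Of the 53 members, 30 had at least 20 counts in each healthy nucleus library, and 12 of these were highest in the same one of the 9 classes in all 3. Over all genes with that depth the share was 18.0% of 10234. The principal cells held 3 of the 12 (Kcnc2, Kcnh5 and Kcnn3), the intercalated cells 3 (Kcnip1, Kcnq3 and Kcns3), the ascending limb 2 (Kcnn2 and Kcnt1), the proximal tubule 2 (Kcnj15 and Kcnma1) and the descending limb 1 (Kcnd3, on 4 counts in 10x nuclei). The descending limb label of DroNc-seq had the highest fibroblast and pericyte list of the 9 classes, at 64.8 CPM, and the highest smooth muscle list, at 88.0 CPM, and their part in the Kcnd3 level was not tested. Without barcodes above 3 times the median UMIs of their class, 10 of the 12 were again the same in all 3 libraries, and Kcnd3 was not. With means over barcodes in place of sums, 9 of the 12 were again the same in all 3 libraries, and with classes of at least 100 barcodes only, 7 of the 12 were.

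Among voltage-gated genes, Kcnc2 encodes Kv3.2, a fast-opening channel best known from neurons. Its principal cell level was 404, 671 and 429 CPM in sNucDrop-seq, DroNc-seq and 10x nuclei, against at most 115, 192 and 108 CPM in any other class. Kcnh5 encodes Eag2, another channel best known from brain. It had 160, 174 and 175 CPM in principal cells, on 19 to 20 counts, and from 0 to 31.0 CPM in every other class of the 3 libraries. The intercalated cell gene Kcnq3, a subunit of the neuronal M-current, had 70.1, 63.1 and 228 CPM in intercalated cells, on 14, 24 and 46 counts. Outside them, Kcnq3 reached at most 11.1 CPM in any class. The intercalated cells also led for Kcnip1, a calcium-binding partner of Kv4 channels, at 75.1, 44.7 and 79.5 CPM. They led for Kcns3, a silent subunit that modifies Kv2 channels, at 25, 21.0 and 29.8 CPM on 5 to 8 counts.

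The ascending limb was the place of the sodium-activated channel gene Kcnt1 (Slack) and of the small-conductance calcium-activated channel gene Kcnn2. Kcnt1 had 162, 105 and 282 CPM in the ascending limb in sNucDrop-seq, DroNc-seq and 10x nuclei. Its next highest class of the 9 was the intercalated cells at 25 CPM on 5 counts in sNucDrop-seq, podocytes at 5.13 CPM on 1 count in DroNc-seq and endothelium at 129 CPM on 7 counts in 10x nuclei. The intervals of the ascending limb and the endothelium overlapped in 10x nuclei. Kcnn2 had 143, 152 and 169 CPM in the ascending limb, and the class next in order had 53.1, 44.2 and 92.4 CPM, of which the last, endothelium, rests on 5 counts. The 46 nuclei of the endothelium label in the healthy 10x library carried the thick ascending limb marker list at 6946 CPM, against 21307 CPM in the ascending limb, and its part in these 2 levels was not tested.

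In the proximal tubule the large-conductance calcium-activated channel gene Kcnma1 had 134, 181 and 263 CPM, against 122, 176 and 121 CPM in the descending limb. In 10x nuclei the class next in order was the ascending limb, at 185 CPM. The proximal tubule and descending limb levels of Kcnma1 did not differ beyond counting error in sNucDrop-seq and DroNc-seq nuclei. Within the proximal tubule, Kcnj15 had no common direction along the segments, with log2 ratios of S3 over S1 and S2 of -0.85 in 10x nuclei, -0.47 in DroNc-seq nuclei and 0.24 in sNucDrop-seq nuclei.

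Some members were highest in stromal nuclei. The label MC, in which the fibroblast, pericyte and smooth muscle lists were highest, was present with enough nuclei in sNucDrop-seq and DroNc-seq. There Kcnt2, the second sodium-activated channel gene (Slick), had 657 and 760 CPM, against 21.5 and 21.8 CPM in all other nuclei. Kcnd3, which encodes the transient channel subunit Kv4.3, had 583 and 791 CPM, against 18.8 and 22.5 CPM. Kcnb2, a delayed rectifier subunit, had 391 and 661 CPM in the MC label, against 165 and 55.5 CPM. With MC and macrophage classes counted, 19 of 37 members were highest in the same class in both libraries, against 29.2% of 12334 genes.

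**Figure D2:**
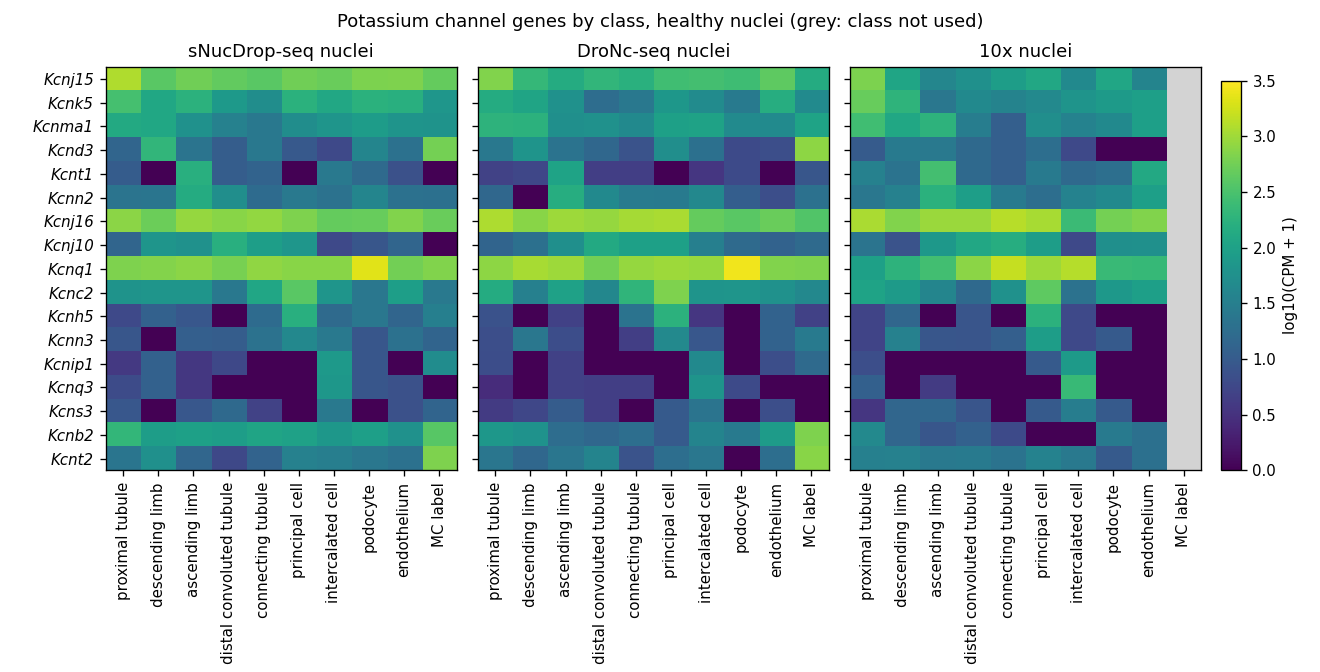
Levels of 17 members (rows) in each class (columns) of the 3 healthy nucleus libraries, as log10 of CPM plus 1; grey marks a class with under 20 barcodes. Kcnt1 and Kcnn2 stand out in the ascending limb, Kcnc2 and Kcnh5 in principal cells, Kcnq3 in intercalated cells, and Kcnd3 and Kcnt2 in the MC label.

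The leading class of Kcnq1, the pore subunit that pairs with Kcne1, differed between the 10x nuclei and the sNucDrop-seq and DroNc-seq nuclei. Kcnq1 lies at chr7:143106362-143427042 (GRCm38) and overlaps the antisense transcript Kcnq1ot1, which is listed at 0 for both bead-based nucleus libraries and for the whole cells and stood at 607 CPM in healthy 10x nuclei. In podocytes Kcnq1 had 2233 CPM in sNucDrop-seq and 2652 CPM in DroNc-seq, the highest of all classes, and 232 CPM in 10x nuclei, where Kcnq1ot1 had 1696 CPM. The sum of both in 10x podocytes was 1928 CPM. In the 10x nuclei Kcnq1 was highest in the connecting tubule at 1573 CPM. The connecting tubule also led in Drop-seq cells, at 81.5 CPM on 16 counts, though they had 0 counts of Kcnq1ot1. Podocytes, with 2 barcodes in Drop-seq, were not among the classes used there. Since nothing in the sources used here says how strand was counted, Kcnq1 is not placed in a class. Another 32 of the 53 members also overlap an annotated gene, 29 in all on the opposite strand.

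Over all nuclei, more of the members compared were lower than higher in UUO. Of the 53 members, 39 had counts in both 10x libraries and at least 20 in all, of which 16 were lower and 4 higher in UUO. Over all 12831 genes compared in the same way, 20.5% were lower and 10.2% higher. The median log2 ratio of UUO over healthy 10x nuclei was -0.74 over the 39 members and -0.16 over all genes; TMM scaling would move every ratio up by 0.17 and median-of-ratios scaling by 0.19. The other 14 members included 12 listed at 0 in healthy 10x nuclei, and the largest UUO count among these 12 was 35. Rare genes of the healthy 10x library were most often in 11 barcodes. Rare genes of the UUO library were most often in 1 barcode. Genes in few barcodes thus appear filtered in the healthy 10x library. A member with few counts entered only where it was above 0 in that library. Lower members were found among inward rectifiers (3 of 5 compared), calcium-activated genes (3 of 4), auxiliary subunits (4 of 6), voltage-gated genes (4 of 15) and sodium-activated genes (1 of 2), and the pH-activated Kcnu1 was lower too. All 5 tandem-pore-domain genes compared were within 2-fold. Fewer nuclei of a type and less RNA per nucleus cannot be told apart in these sums over all nuclei. With at least 100 counts, 6 of 20 members were lower and 4 higher, against 15.2% and 12.7% of all genes. Within the 9 classes, 28 of 99 pairs of a member and a class were lower and 31 higher. Over all genes these shares were 15.7% and 17.8% of pairs. Pairs of 1 gene are not separate members: 8 of the higher pairs were of Kcnrg and 7 of Kcnc2. Among the lower pairs, 6 were of Kcnj15 and 4 of Kcnj10.

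**Figure D3:**
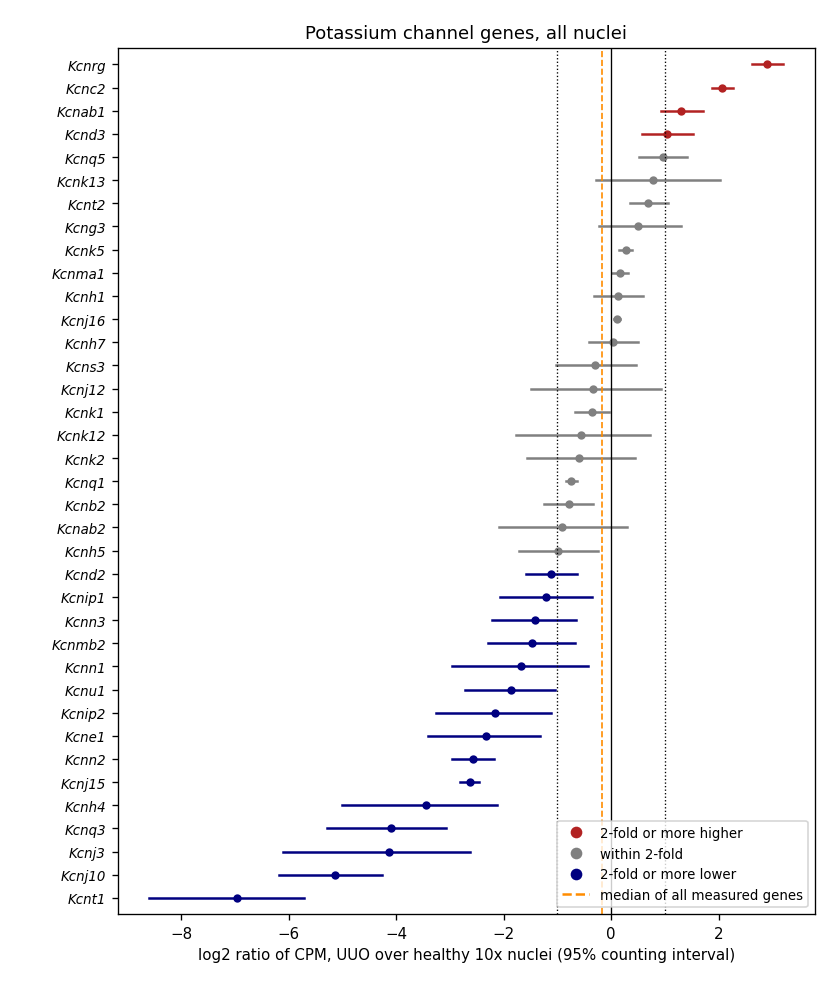
Log2 ratio of CPM in UUO over healthy 10x nuclei for 37 of the 39 members compared, with 95% counting intervals; dotted lines mark 2-fold and the dashed line the median of all genes. Kcnt1 lies lowest at -6.96 and Kcnrg highest at 2.90.

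Among inward rectifiers, Kcnj10 and Kcnj15 were lower in UUO while their shared partner Kcnj16 was within 2-fold. Kcnj10 had 1.48 CPM on 11 counts in UUO, against 52.6 CPM in healthy 10x nuclei. Among the other healthy libraries its lowest level was 21.2 CPM, in Drop-seq cells. Its log2 ratio was -5.15 (-6.18 to -4.27). Kcnj15 had 49.3 CPM in UUO against 305 CPM in healthy 10x nuclei, with a log2 ratio of -2.63 (-2.81 to -2.45). Kcnj16 had 1051 CPM in UUO, against 977 CPM in healthy 10x nuclei, a log2 ratio of 0.11 (0.04 to 0.17). Kcnj3, a subunit of G-protein-gated channels, was also lower, with 0.54 CPM on 4 counts in UUO and 9.50 CPM in healthy 10x nuclei.

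Another 4 members described here were among the 8 furthest below 0 over all nuclei. Kcnt1 had 0.675 CPM on 5 counts in UUO against 83.8 CPM, and its level in sNucDrop-seq and DroNc-seq nuclei was 22.2 and 13.1 CPM. Kcnq3 had 1.21 CPM on 9 counts in UUO against 20.7 CPM in healthy 10x nuclei. Kcnn2 had 10.9 CPM in UUO against 64.8 CPM in healthy 10x nuclei, a log2 ratio of -2.57 (-2.96 to -2.19). Kcnh4, a voltage-gated gene of the ELK group, had 0.81 CPM on 6 counts in UUO against 8.82 CPM in healthy 10x nuclei. With the nuclei of either bead-based library as the healthy side, these 4 members were again at least 2-fold lower.

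Kcnj10 and Kcnj15 were also lower within segments. In the proximal tubule class, Kcnj15 had 85.0 CPM in UUO against 653 CPM in healthy 10x nuclei, and Kcnj16 had 1230 against 1143 CPM. In UUO that class includes the dedifferentiated and proliferating labels. Per 100 Kcnj16 counts there were thus 6.91 Kcnj15 counts (6.14 to 7.76) in the UUO proximal tubule. Drop-seq cells had 108 such counts, and the nuclei had 156 with sNucDrop-seq, 57.7 with DroNc-seq and 57.1 with 10x. In the distal convoluted tubule Kcnj10 had 11.1 CPM on 6 counts in UUO and 123 CPM in healthy 10x nuclei. Per 100 Kcnj16 counts that segment had 0.94 Kcnj10 counts (0.35 to 2.07) in UUO, against 27.7, 20.9, 15.2 and 12.9 in the healthy libraries in the same order. Both ratios lay below the intervals of all 4 healthy libraries. Kcnj15 was lower in all 6 classes in which it was compared, of which 5 lie outside the proximal tubule, where its level in healthy 10x nuclei was 10.6% of that inside. Kcnj10 was lower in all 4 classes compared. With connecting tubule and principal cell labels summed, Kcnj15 had 15.5 CPM in UUO and 101 CPM in healthy 10x nuclei. Over the same summed labels Kcnj10 had 1.93 CPM on 2 counts in UUO and 127 CPM in healthy 10x nuclei.

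**Figure D4:**
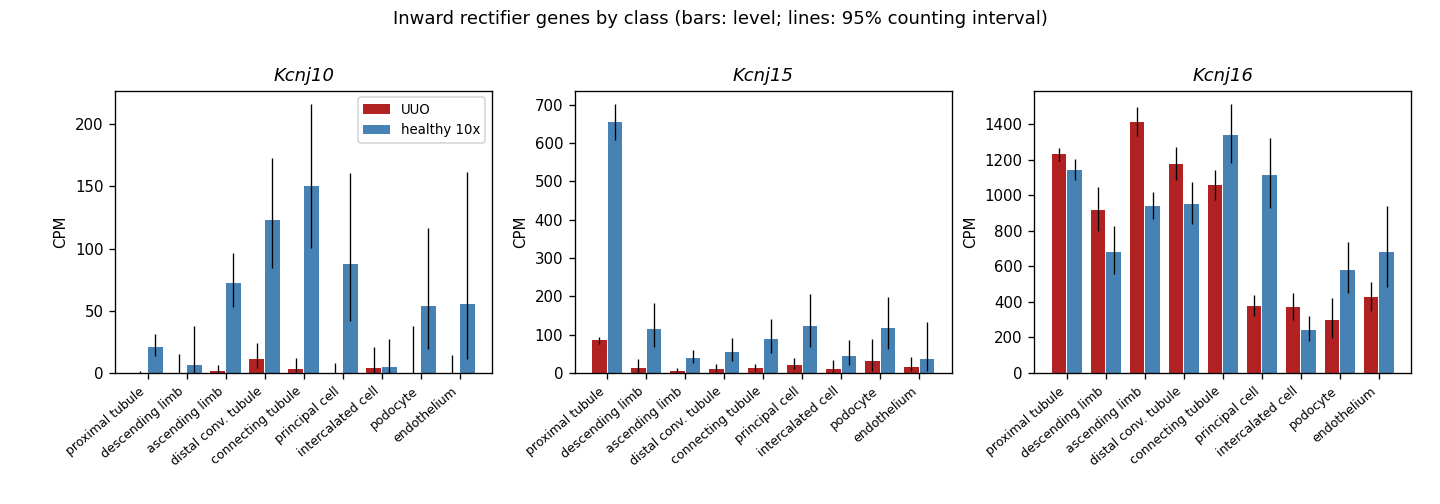
Levels of Kcnj10, Kcnj15 and Kcnj16 in CPM in 9 classes, in UUO (red) and healthy 10x nuclei (blue), with 95% counting intervals; each panel has its own scale. Kcnj15 in the proximal tubule stands at 85.0 CPM in UUO and 653 CPM in healthy nuclei, while Kcnj16 there stands at 1230 and 1143 CPM.

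The proximal tubule in UUO also had less Kcnq1, while Kcnk5 and Kcnma1 were within counting error. Of 25 members compared there, 11 were lower and 6 higher, against 20.7% and 14.6% of 11395 genes. Kcnq1 had 20.1 CPM in UUO against 96.0 CPM in healthy 10x nuclei, and its sum with Kcnq1ot1 had 297 against 653 CPM. Kcnk5, which encodes the alkaline-activated basolateral channel TASK-2, had 468 CPM in UUO and 489 CPM in healthy 10x nuclei. Kcnma1 had 284 against 263 CPM. Within the UUO proximal tubule Kcnma1 differed by label, with 569 CPM in PT(S3), 226 in PT(S2) and 113 in PT(S1). The summed proximal tubule marker list had 853 CPM in UUO and 12789 CPM in healthy 10x nuclei, with 5 of 5 genes above 0 in both. Slc34a1 had 226 against 8639 CPM, Lrp2 406 against 3233, Slc13a3 5.78 against 641 and Slc22a6 0.275 against 78.3. By contrast, Slc5a12 was not lower against healthy 10x nuclei, with 216 against 197 CPM. That healthy 10x level was the smallest among the healthy libraries. The proximal tubule of DroNc-seq nuclei held 4187.5 CPM of Slc5a12, that of sNucDrop-seq nuclei 2249 and that of Drop-seq cells 424. The UUO level of Slc5a12 was below all of these, so its comparison depends on the healthy library used. The part of these markers in the results was not tested.

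The ascending limb genes of healthy kidney were lower in UUO. Of 18 members compared there 6 were lower and 5 higher, against 17.2% and 16% of 8292 genes. Kcnt1 had 3.58 CPM on 3 counts in the UUO ascending limb, against 282 CPM on 183 counts in healthy 10x nuclei, a log2 ratio of -6.30 (-8.59 to -4.73). In the proximal tubule it had 0 counts in UUO and 40 in healthy 10x nuclei. With the 0 set at a floor of 3 counts it was 40.8-fold lower, and the interval reached up to a log2 ratio of -4.99. Its healthy level there was 33.7 CPM. The thick ascending limb marker list stood at 1852 CPM in the same proximal tubule nuclei, and the part of free RNA was not tested. Kcnn2 had 31.0 CPM in the UUO ascending limb, against 169 CPM in healthy 10x nuclei, and Kcnma1 had 26.2 against 185 CPM. Kcnh1, which encodes the channel Eag1, went the other way with 42.9 against 3.08 CPM, on 36 and 2 counts, a log2 ratio of 3.80 (1.84 to 6.90). The thick ascending limb marker list had 1423 CPM in UUO and 21307 CPM in healthy 10x nuclei, and its part in these results was not tested.

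Kcnc2 (chr10:112271121-112467024, GRCm38) was higher in most tubule segments in UUO. Over all nuclei it had 350 CPM in UUO, against 83.8 CPM in healthy 10x nuclei, 125 in DroNc-seq, 71.1 in sNucDrop-seq and 4.80 in Drop-seq. It was called higher in 7 of the 9 classes. In the ascending limb it had 548 CPM in UUO and 38.5 CPM in healthy 10x nuclei, and in the distal convoluted tubule 382 and 14.9 CPM, on 206 and 4 counts. In the connecting tubule label it had 1207 CPM in UUO and 57.1 CPM in healthy 10x nuclei. The principal cells, its leading class in healthy kidney, had 296 CPM in UUO and 429 CPM in healthy 10x nuclei. With connecting tubule and principal cell labels summed, the values were 816 and 196 CPM, a log2 ratio of 2.06 (1.68 to 2.46). Of the 9 classes in UUO, the connecting tubule label had the highest Kcnc2 level. Outside the tubule, Kcnc2 in UUO had 286 CPM in macrophages, 221 in endothelium, 213 in the label JGA, 144 in fibroblasts and 143 in podocytes. The part of free RNA in the Kcnc2 levels was not tested.

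In the distal convoluted tubule, 4 of 12 members were higher and 3 lower, against 20.9% and 14.4% of 6108 genes. In the connecting tubule label these counts were 4 and 2 of 10, against 24.9% and 13.2% of 6055 genes, and in the principal cell label 5 and 3 of 11, against 21.4% and 13.3% of 4925 genes. With both labels summed, 3 of 16 members were higher and 4 lower, against 19.5% and 14.1% of 7864 genes. The distal convoluted tubule marker list had 1456 CPM in UUO and 15865 CPM in healthy 10x nuclei in its own class, and the connecting tubule list 1368 and 39970 CPM. Within the connecting tubule list, Slc8a1 had 956 and 37888 CPM and Calb1 15.2 and 1926 CPM. Trpv5 went the other way, with 396 CPM in UUO and 156 CPM in healthy 10x nuclei. The principal cell list had 74.5 CPM in UUO and 4724 CPM in healthy 10x nuclei in its own label, and 186 and 1152 CPM in the connecting tubule label. The part of these lists in the results was not tested. Kcnh5 went in opposite directions in the last 2 labels. It had 2.26 CPM on 1 count in UUO principal cells against 175 CPM on 20 counts in healthy 10x nuclei, a log2 ratio of -6.28 (-11.65 to -3.63). In the connecting tubule label it had 45.7 CPM on 27 counts in UUO against 0 counts. With the 0 set at a floor of 3 counts it was 2.93-fold higher, and the interval reached down to a log2 ratio of 1.16. With the labels summed, Kcnh5 had 27.1 CPM in UUO and 65.2 CPM in healthy 10x nuclei. Kcnj16 in principal cells had 377 CPM in UUO and 1113 CPM in healthy 10x nuclei, and summed over both labels 765 and 1255 CPM, which is within 2-fold. Kcne1, the small subunit that slows Kcnq1, had 4.84 CPM on 5 counts in UUO and 61.9 CPM in healthy 10x nuclei over the summed labels.

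In intercalated cells 3 of 7 members were higher and 1 lower, against 16% and 12.4% of 4440 genes. The lower gene was Kcnq3, with 0 counts in UUO and 228 CPM on 46 counts in healthy 10x nuclei. With the 0 set at a floor of 3 counts it was 20.3-fold lower, and the interval reached up to a log2 ratio of -3.98. Kcng3, a silent subunit of the voltage-gated family, had 124 CPM on 33 counts in UUO, against 24.8 CPM on 5 counts. The intercalated cell marker list had 1184 CPM in UUO and 4589 CPM in healthy 10x nuclei, and its part in these results was not tested. In the descending limb 2 of 7 members were higher and 1 lower, against 12.5% and 13.5% of 3986 genes. In endothelium 2 of 6 were higher and 0 lower, against 21.6% and 11.7% of 3418 genes. In podocytes 0 of 3 were higher and 1, Kcnq1, was lower, against 12.7% and 15.9% of 2147 genes. Kcnq1 had 71.3 CPM on 7 counts in UUO podocytes against 232 CPM on 26 counts in healthy 10x nuclei, whereas its sum with Kcnq1ot1 had 1874 and 1928 CPM.

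**Figure D5:**
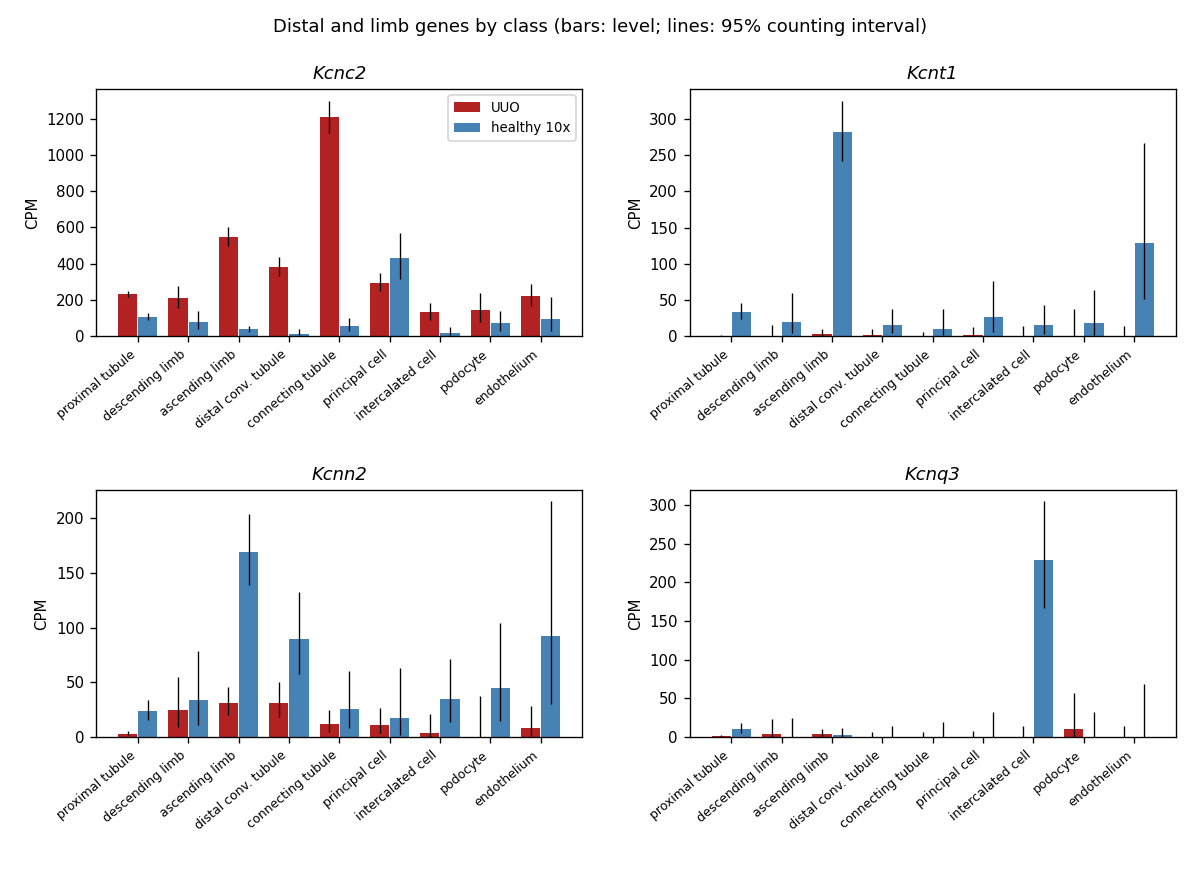
Levels of Kcnc2, Kcnt1, Kcnn2 and Kcnq3 in CPM in 9 classes, in UUO (red) and healthy 10x nuclei (blue), with 95% counting intervals; each panel has its own scale. Kcnc2 reaches 1207 CPM in the UUO connecting tubule label, while Kcnt1 in the ascending limb and Kcnq3 in intercalated cells are at 3.58 CPM and 0 in UUO.

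Kcnrg, which encodes a soluble protein that hinders the assembly of voltage-gated channels, was higher in UUO in all 8 classes compared, with log2 ratios of 1.94 to 4.96. The highest ratio, in the connecting tubule label, rests on 2 healthy counts, and with the principal cell label added it was 4.11 (2.74 to 6.00). Over all nuclei it had 263 CPM in UUO, against 35.3 CPM in healthy 10x nuclei, 5.97 in DroNc-seq, 3.89 in sNucDrop-seq and 0.873 in Drop-seq. Kcnrg (chr14:61607457-61612826, GRCm38) overlaps the antisense gene Dleu2, which had 482 CPM in DroNc-seq, 382 in sNucDrop-seq and 50.3 in Drop-seq, and 0 counts in the healthy 10x nuclei. The UUO and healthy tables list different sets of symbols, with 18249 in both, and Dleu2 is one of 1464 symbols listed for the healthy libraries alone. Whether reads of that locus were assigned in the same way in both tables was not tested, which limits the Kcnrg ratios. Its neighbour Trim13 had 5.94 CPM in UUO and 6.79 CPM in healthy 10x nuclei. Reads of Kcnrg and of its antisense partner cannot be told apart here. Kcnab1, an auxiliary subunit of voltage-gated channels, had 53.6 CPM in UUO and 21.7 CPM in healthy 10x nuclei, a log2 ratio of 1.30 (0.92 to 1.71).

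Stromal and immune labels of the UUO nuclei held further members. The UUO fibroblast label held 398 nuclei, and healthy 10x nuclei have no such label, so these levels have no healthy 10x counterpart and are set against the other UUO nuclei. Kcnt2 had 554 CPM in UUO fibroblasts, against 18.5 CPM in all other UUO nuclei. Kcnd2, which encodes the transient channel subunit Kv4.2, had 116 against 5.70 CPM, and Kcnd3 had 137 against 26.1 CPM. Kcnma1 had 443 against 169 CPM in the same comparison, and 123 of its 175 fibroblast counts came from the 68 nuclei of the label Fib.2. Kcnmb2, a beta subunit of the Kcnma1 channel, had 43.0 against 1.43 CPM on 17 and 10 counts. The label JGA, of 46 nuclei, had 383 CPM of Kcnab1 on 18 counts. In UUO macrophages Kcnk13, which encodes a tandem-pore-domain channel known from microglia, had 191 CPM on 12 counts, against 3.67 CPM in all other nuclei. Kcnd3 over all nuclei had 32.0 CPM in UUO against 15.6 CPM in healthy 10x nuclei. That UUO level was below the 38.4 CPM of sNucDrop-seq and the 56.8 CPM of DroNc-seq nuclei, within 2-fold of both.

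Genes that work with these channels were read from 2 lists. Of 13 partner genes, 7 were compared, of which 0 were higher and 3 lower, against 10.2% and 20.5% of all genes, with a median log2 ratio of -0.79, beside -0.16 over all genes. The lower genes were Dpp6, an auxiliary subunit of Kv4 channels, the cation channel gene Hcn2 and Amigo1, a partner of Kv2 channels. Of 25 genes of potassium transport, 23 were compared, of which 17 were lower and 1 higher, against 20.5% and 10.2% of all genes, with a median of -2.45. The higher gene was the cotransporter Slc12a2, at 38.3 CPM in UUO and 13.9 CPM in healthy 10x nuclei. The furthest lower was Slc12a1, the sodium-potassium-chloride cotransporter of the ascending limb, at 194 against 4497 CPM.

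Between whole cells and nuclei, the shares of members called higher were near those of all genes. The shares called lower in cells were 60.5%, 50% and 58.1% for sNucDrop-seq, DroNc-seq and 10x nuclei, against 48.7%, 48.3% and 46.3% of all genes. In the proximal tubule, 38 members were compared between Drop-seq cells and sNucDrop-seq nuclei, of which 23 were lower and 7 higher in cells, against 48.7% and 17.9% of 12838 genes. The median log2 ratio was -1.43 over these members and -0.93 over all genes. TMM scaling moved every ratio up by 1.08, after which 12 members were higher and 16 lower, against 33.4% and 25.2% of all genes. Against DroNc-seq nuclei 8 of 38 were higher and 19 lower, against 19.7% and 48.3% of all genes, and against healthy 10x nuclei 6 of 31 were higher and 18 lower, against 21.6% and 46.3%. Kcnq1 had 32.9 CPM in Drop-seq cells, against 674 CPM in sNucDrop-seq nuclei, 810 in DroNc-seq and 96.0 in healthy 10x nuclei. Kcnj15 had 573 CPM in cells, against 1195, 685 and 653 CPM in the same nuclei. Kcnk2, which encodes the mechanosensitive channel TREK-1, had 70.6 CPM in cells, against 10.1, 5.13 and 5.05 CPM. Kcnq5, a relative of the M-current subunits, had 66.3 CPM in cells, against 17.4, 10.9 and 17.7 CPM. Kcnn3, a small-conductance calcium-activated channel gene, had 27.5 CPM in cells, against 7.65, 6.04 and 4.21 CPM. The log2 ratios of these last 3 genes ran from 1.85 to 3.80 over the nucleus libraries. Here dissociation and platform cannot be told apart from the difference between cells and nuclei.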

How the data were processed

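The deposited tables hold UMI counts per gene and barcode, with a deposited cell type for each barcode, for 5 libraries of mouse kidney. Per the submitters' processing notes, the sources name STAR 2.5.3a and the build mm10; how introns and strand were counted is not stated there. Counts made by the authors were summed per class and library and divided by the total of all genes (CPM, with Python 3.11.15, numpy 2.4.6, scipy 1.17.1 and pandas 2.3.3). Single levels carry exact Poisson intervals and ratios an exact interval conditional on the sum of both counts. A gene was compared when each library held counts of it and the 2 sums compared held at least 20. A class at 0 was set at 3 counts for the ratio, and the interval can reach nearer to 0 than that ratio. Classes needed 20 barcodes, and doublets were not called, but barcodes above 3 times the median UMIs of their class were left out in an alternative. The interval was tried on simulated Poisson counts, which hold only the counting error that it covers. Spread between nuclei, mice or libraries was not simulated, so that trial says nothing of it. Gene positions and overlaps come from GENCODE M21 on the same build. TMM factors came from edgeR 4.0.16 in R 4.3.3, and figures from matplotlib 3.10.9.

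The members and the lists of genes were chosen with earlier results of these data known. Members are named by rule: the 12 with the highest mean CPM over the healthy nucleus libraries, up to 8 in each direction over all nuclei, 2 in each direction within a class, and those with the same leading class in 3 libraries. Genes named outside this rule (Kcne1, Kcnh1, Kcng3, Kcnd2, Kcnmb2, Kcnk13, Kcnk2, Kcnq5 and those of the 2 lists) were chosen after their values were seen. Some genes that the rule names are not reported here.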

Additional observations from a re-analysis of the deposited data

Results flagged for a closer look

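Kcnh5, the gene of the channel Eag2, stood apart because its labels went in opposite directions after obstruction. Its log2 ratio of UUO over healthy 10x nuclei was 1.55 in the connecting tubule label. That ratio rests on 27 counts in UUO and 0 in healthy nuclei, with the 0 set at 3 counts. In the principal cell label it was -6.28, on 1 and 20 counts. The difference between the labels was not tested. In UUO the principal cell marker list was highest in the connecting tubule label, at 186 CPM against 74.5 CPM in the principal cell label, and with both labels summed the Kcnh5 log2 ratio was -1.27 (-2.15 to -0.36).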

How the results depend on the processing

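No paired analysis was possible because each group had 1 library, numbered only by accession order. Over all nuclei, a count minimum of 100 left 6 of 20 members lower and 4 higher in UUO, against 15.2% and 12.7% of all genes. It left 1 partner gene lower. With sNucDrop-seq nuclei as the healthy library 7 of 44 members and 1 partner gene were higher, against 19% of all genes, and with DroNc-seq nuclei 7 of 47 members and 2 partner genes were higher, against 17.2% of all genes, and 1 partner gene was lower. Kcnd3 was the named gene whose direction turned, to -0.27 against sNucDrop-seq and -0.83 against DroNc-seq nuclei on the log2 scale. Within classes, 31 of 99 pairs of a member and a class were higher and 28 lower, against 17.8% and 15.7% of pairs over all genes. A count minimum of 5 gave 79 lower of 205, against 22%. A minimum of 100 gave 10 higher and 8 lower of 35, against 19.2% and 12.4%, and no minimum gave 52 higher and 149 lower of 328, against 14.9% and 27.6%. Of 9 members with at least 100 counts in each nucleus library, 4 had the same leading class, against 24% of all genes. Between Drop-seq cells and sNucDrop-seq nuclei, 12 members were higher with TMM and 12 with median-of-ratios scaling, against 33.4% and 33.3% of all genes, and a minimum of 100 left 4 higher and 7 lower of 14, against 21.4% and 44.8%. The causes were not tested, except that a minimum changes how many genes enter. The other 110 recomputed counts stayed within 1.5 times the value reported. Most class levels outside the proximal tubule rest on few counts.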
